A study of Caenorhabditis elegans with 3 samples.

Results

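The genes described are 8 antimicrobial peptide genes of the Caenorhabditis elegans epidermis, taken by name from the 19973 protein-coding genes of the nuclear genome: nlp-27, nlp-28, nlp-29, nlp-30, nlp-31, nlp-34, cnc-2 and cnc-4. They were picked by name, but with earlier results of these data known. Binding of the GATA factor ELT-3 near them was read from the peak lists of a chromatin immunoprecipitation sequencing (ChIP-seq) experiment, in which DNA recovered with a protein is sequenced. The material was whole L1 larvae, the earliest larval stage, of both sexes, from the strain OP75, genotype unc-119(ed3) III; wgIs75, whose transgene supplies ELT-3 with a GFP-FLAG tag at its C terminus. The antibody is labelled elt-3, and the promoter that drives the transgene is unknown here. The control experiment was not analysed here. All larvae carried the transgene, their age is given as unknown, and the labels name no infection, wounding or other treatment. There was 1 group, with 2 biological replicates. Replicate 1 was 1 library, and replicate 2 was 2 technical libraries that share an alignment and count as 1 sample. Whole larvae mix the epidermis with every other tissue, and peak lists hold no expression values, so the label epidermal is background and was not checked here.

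The genes encode small secreted peptides. The nlp genes listed belong to a family of glycine- and tyrosine-rich peptides and lie side by side, and the cnc genes encode the related caenacins. Several of them are known to be switched on in the epidermis when the fungus Drechmeria coniospora pierces the cuticle or when the cuticle is wounded. For nlp-29 this induction runs through the G protein subunit GPA-12, the pseudokinase NIPI-3 and a p38 MAP kinase cascade, whereas cnc-2 is known to depend on the TGF-beta ligand DBL-1. ELT-3 is expressed in the epidermis and, as a GATA factor, recognizes short sites, written here as WGATAR (W is A or T and R is A or G, around a GATA core). A match to these letters describes the sequence and does not show that the factor sits there.

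All 8 genes lie on chromosome V in 2 groups (coordinates of WBcel235, the same assembly as ce11). From left to right the nlp group comprises nlp-34 (WBGene00015046, chrV:3978825-3979134, minus strand), nlp-31 (WBGene00003769, chrV:3980055-3980622), nlp-30 (WBGene00003768, chrV:3981980-3982741), nlp-29 (WBGene00003767, chrV:3984425-3984847), nlp-28 (WBGene00003766, chrV:3987900-3988316) and nlp-27 (WBGene00003765, chrV:3989378-3989770), the last 5 of them on the plus strand. It spans 10946 bp. The gene nlp-34 points away from nlp-31, with 920 bp between them, so both share 1 upstream region. The other genes, cnc-4 (WBGene00000558, chrV:1447195-1447707, plus strand) and cnc-2 (WBGene00000556, chrV:1449665-1450183, minus strand), belong to a run of 6 cnc genes that spans 7842 bp.

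The 150 bases just upstream of the 5 nlp genes in tandem show how their promoters differ. They were read from the RefSeq genome sequence of WBcel235, are written 5′ to 3′ on the plus strand, on which all 5 genes lie, and end at the base before the annotated 5′ end. Capitals mark WGATAR matches on either strand.

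nlp-31: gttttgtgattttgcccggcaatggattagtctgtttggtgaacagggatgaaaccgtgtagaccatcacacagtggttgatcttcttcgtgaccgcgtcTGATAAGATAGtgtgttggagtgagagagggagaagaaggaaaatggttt

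nlp-30: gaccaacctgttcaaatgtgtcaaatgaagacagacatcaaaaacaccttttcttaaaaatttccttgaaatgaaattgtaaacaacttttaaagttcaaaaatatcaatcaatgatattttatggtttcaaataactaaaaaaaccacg

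nlp-29: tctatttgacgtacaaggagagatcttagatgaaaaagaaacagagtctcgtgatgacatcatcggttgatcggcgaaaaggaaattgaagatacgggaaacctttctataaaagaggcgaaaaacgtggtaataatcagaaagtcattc

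nlp-28: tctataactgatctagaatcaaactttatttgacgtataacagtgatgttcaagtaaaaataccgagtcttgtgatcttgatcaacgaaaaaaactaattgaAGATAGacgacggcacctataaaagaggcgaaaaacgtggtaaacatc

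nlp-27: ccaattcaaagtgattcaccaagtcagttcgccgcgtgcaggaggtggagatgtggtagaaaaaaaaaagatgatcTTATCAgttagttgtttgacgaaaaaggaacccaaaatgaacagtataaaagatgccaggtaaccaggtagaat

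The stretch before nlp-31 holds 2 matches that overlap by 1 base. Those before nlp-28 and nlp-27 hold 1 match each, and those before nlp-30 and nlp-29 hold 0. The genes nlp-29 and nlp-28 share the 27-base run ctataaaagaggcgaaaaacgtggtaa, which begins with a TATA-like stretch. It is the longest run that any of the 28 pairs of the 8 genes share within 250 bp upstream, and the next longest is 13 bases. In global alignments of these 250 bp the identity ran from 42.3% to 57.6%, with a median of 47.7% and the highest value for nlp-29 and nlp-28. The upstream sequences were thus far from identical copies. Of the 36-base words that start in each promoter window, between 92.3% (nlp-28) and 100% occurred once in the genome. Reads could therefore be told apart at nearly all positions at that word length, but the read length and the handling of reads with several matches were unknown (not given in the sources used here).

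A single strong ELT-3 peak stood in the nlp group, between nlp-34 and nlp-31. The promoter window of a gene was taken to reach 1000 bp upstream and 200 bp downstream of the 5′ end, and a gene with a summit there is called bound. The IDR list, labelled optimal, holds the 1202 peaks kept by a threshold on the irreproducible discovery rate, a measure of reproducibility. Peaks of replicate 1 overlapped 100% of them and peaks of replicate 2 overlapped 9.73%. A place in the list therefore does not stand for a peak in each biological replicate. In the IDR list 2 of the 8 genes were bound, nlp-31 and nlp-34, against 3.44% of all protein-coding genes. Both were bound through the same summit, so the count stands for 1 called peak. The peak (chrV:3979877-3980172, between genes) had its summit 30 bp upstream of nlp-31, the gene whose peptide is known for antifungal activity in vitro, and 891 bp upstream of nlp-34. Of the 530 IDR summits in promoter windows, 28.9% lay in the windows of more than 1 gene, and 10.8% lay within 50 bp of the nearest 5′ end. Given only to the gene with the nearest 5′ end, an assignment chosen after the data were seen, the peak would belong to nlp-31 alone. The same was the case in a narrower window, reaching 500 bp upstream and 100 bp downstream.

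The peak was among the stronger ones of its lists. Its signal, a value deposited by the authors on a scale that differs between lists, was 94.3 in the IDR list, where it ranked 63 of 1202, and the list's median was 48.0. In the pooled list, called on the alignments of both replicates, it had the same signal and ranked 63 of 10082 (the top 0.625%). The IDR list was derived from the pooled list, so this is the same entry and adds no separate evidence. Replicate 1 alone gave a signal of 92.7 and rank 65 of 10775. The q-value was 0.000484, the smallest that occurs in these 3 lists. Weaker peaks had the same q-value, such as those at ranks 582 and 764 of the IDR list. In replicate 2 alone, with 4080 peaks, no peak overlapped the one at nlp-31. The nearest summit, within cyp-34A10, lay 7299 bp upstream of the nlp-31 5′ end and 6378 bp downstream of the nlp-34 5′ end. As a peak of its own, the one at nlp-31 was thus called in replicate 1 and not in replicate 2.

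**Figure D1:**
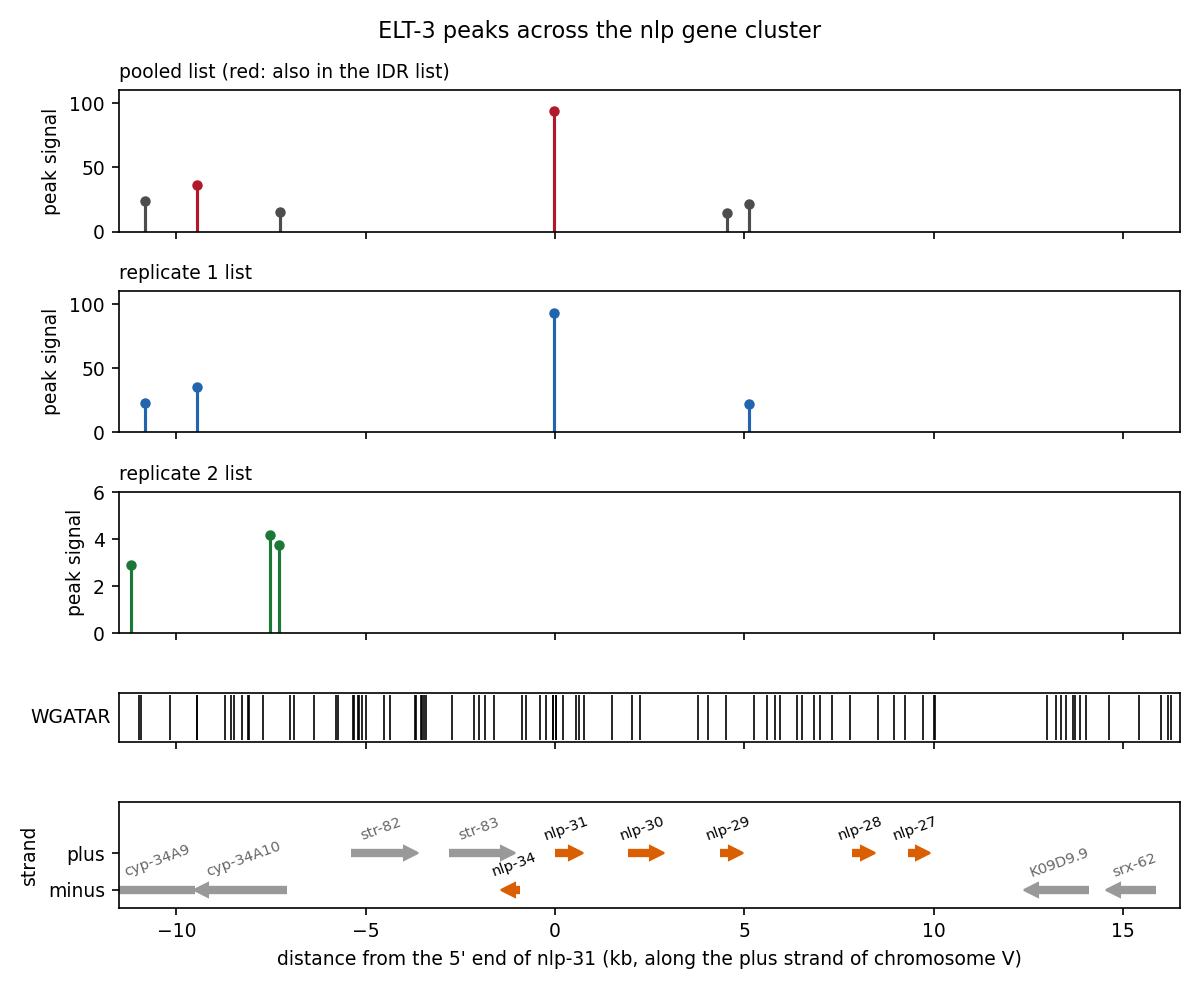
ELT-3 peaks across the nlp group: the x axis gives the distance from the 5′ end of nlp-31 in kb, and the upper 3 panels give each summit's peak signal in the pooled, replicate 1 and replicate 2 lists, whose scales differ. The 2 lower panels show WGATAR matches and genes by strand, with the genes described in orange. The peak beside nlp-31 reaches 94.3 in the pooled list and 92.7 in replicate 1, and the replicate 2 panel is empty over all 6 nlp genes.

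The other 4 genes on the plus strand, nlp-30, nlp-29, nlp-28 and nlp-27, had no IDR summit in their promoters. The gene nlp-29, widely used as a reporter of fungal infection and wounding, had a pooled summit in its promoter window, 164 bp downstream of its 5′ end and within its intron. Its signal was 14.8 and its rank 10081 of 10082, with a q-value of 0.960, and no peak of either replicate overlapped it. The deposited records describe the pooled list as peaks and background, and this entry lies at its weak end. Another pooled peak near nlp-29 was outside the window, 743 bp downstream of the 5′ end and past the end of the gene, with a signal of 21.8 (rank 3326, q = 0.317). Replicate 1 had it too, with a signal of 21.9 and rank 3150. The bases within 50 bp of the intronic summit of nlp-29 (chrV:3984539-3984639, plus strand, running from the intron into the following coding exon) are shown because this is the only entry in the promoter window of that gene. Capitals mark the WGATAR match, whose nearer end lies 22 bp from the summit. Of all pooled summits, 27.5% had a match within 50 bp.

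nlp-29 summit: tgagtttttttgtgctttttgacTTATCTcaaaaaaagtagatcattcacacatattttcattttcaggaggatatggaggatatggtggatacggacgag

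For nlp-30 the nearest pooled summit was that of nlp-31, 1955 bp upstream. With a window reaching 2000 bp upstream, the count of bound genes in the IDR list would be 3, all through this 1 summit. The share of all genes in that wider window was not computed. For nlp-28 and nlp-27 the nearest pooled summit was the one past the end of nlp-29, 2732 bp and 4210 bp upstream. In replicate 2 the nearest summit to these 4 genes lay between 9224 bp (nlp-30) and 16622 bp (nlp-27) upstream. Across the nlp group and 5000 bp on each side there were 3 pooled summits, or 1.43 per 10 kb, against 0.821 per 10 kb over chromosome V. Only 1 of the 3 was in the IDR list, and replicate 2 had 0 summits in the same span against 0.385 per 10 kb on the chromosome.

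**Figure D2:**
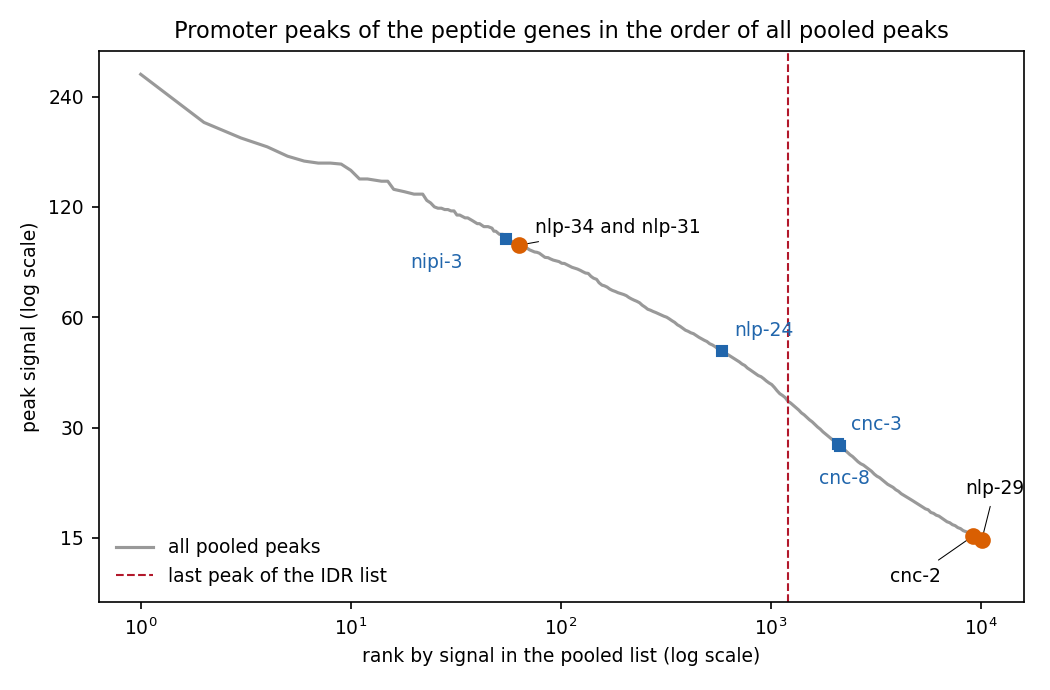
Signal against rank for all pooled peaks, both on log scales, with the promoter peaks of the genes described as orange circles and those of 4 related genes as blue squares. The shared peak of nlp-34 and nlp-31 sits at rank 63, nipi-3 at rank 55, and the entries at cnc-2 and nlp-29 at ranks 9193 and 10081, far right of the dashed line that marks the last IDR peak.

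The pooled list gave 4 of the 8 genes a summit in the promoter window, against 17.9% of all protein-coding genes. They were nlp-31, nlp-34, nlp-29 and cnc-2. The entries at nlp-29 and cnc-2 had q-values of 0.960 and 0.934. With only pooled entries of q at most 0.05, 2 of the 8 genes had one, nlp-31 and nlp-34, against 5.30% of all genes. Replicate 1 alone gave 3 of the 8 (nlp-31, nlp-34 and cnc-2, background 18.7%), and replicate 2 alone gave 0 of the 8 (background 5.30%). These 2 lists end at unlike q-values, 0.96 in replicate 1 and 0.00371 for nuclear peaks of replicate 2. The replicate 1 entry at cnc-2 had q = 0.956, so the 2 counts are not at a like threshold. With 8 genes and a peak that 2 of them share, these counts describe the lists and no test was made of them.

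WGATAR occurred in all 8 promoter windows, but this separates the genes from few others, since 93.3% of all promoter windows of that length (1201 bp, either strand) hold at least 1 match. The number of matches differed among the genes. The windows of nlp-31 and nlp-34, which overlap and hold the same sites, had 8 matches, and 2.62% of all promoter windows have as many or more. The windows of nlp-29, nlp-28, nlp-27 and cnc-2 had 3, that of nlp-30 had 2 and that of cnc-4 had 1, where the median over all genes is 3. The windows of nlp-31 and nlp-34 were also the richest in G and C of the 8, with 38.6% and 40.0%, while the others ran from 30.6% to 35.3% and the median over all genes was 35.0%. With the stricter word TGATAA, 6 of the 8 windows held a match, against 72.0% of all windows. For nlp-29 and cnc-4 the count was 0.

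**Figure D3:**
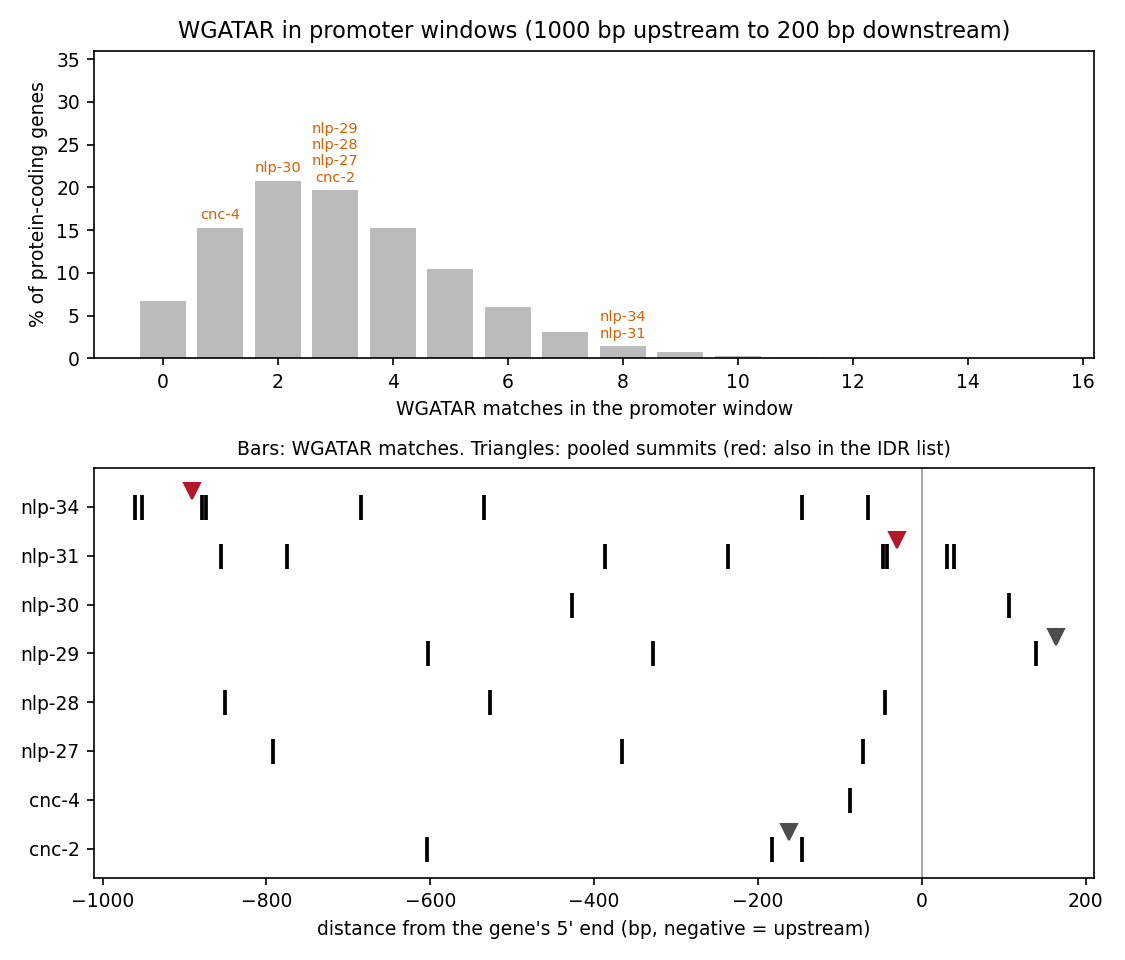
Upper panel: share of protein-coding genes by number of WGATAR matches in the promoter window, with the genes described named above their bar. Lower panel: positions of matches (bars) and of pooled summits (triangles) in bp from each gene's 5′ end. The nlp-31 and nlp-34 windows hold 8 matches each, and the summit of their peak lies beside the overlapping pair.

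At the nlp-31 peak the overlapping pair of matches lay from 50 to 40 bp upstream of the 5′ end, and its nearer end was 10 bp from the summit. Another 2 matches lay in the same peak, at 28 and 37 bp downstream of the 5′ end, outside the 50 bp on each side of the summit. The peak is 296 bp wide with the summit at its midpoint, as for 1195 of the 1202 IDR peaks. The precision of a summit therefore cannot be read from the width of its peak. WGATAR lay within 50 bp of 38.9% of IDR summits and of 28.3% of those in promoter windows. At least 2 matches, as at nlp-31, were found at 15.1% of IDR summits. An overlapping pair on 1 strand (matches that start 5 bp apart) lay within 50 bp of 24 IDR summits (2.00%) and of 0.595% of pooled summits, and in 1.00% of all promoter windows. Of the 100 strongest IDR peaks, to which the nlp-31 peak belongs, 32 had a match within 50 bp.

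The cnc genes had no strong peak. Neither cnc-4 nor cnc-2 had an IDR summit in its promoter, and the nearest IDR summit was 8159 bp upstream of cnc-4, in the promoter of R09B5.11. The gene cnc-2 had a pooled summit 162 bp upstream of its 5′ end (chrV:1450197-1450492, between genes). Its signal was 15.2 in the pooled list, rank 9193 of 10082, and 14.2 in replicate 1, rank 10618 of 10775, with q-values of 0.934 and 0.956. Replicate 2 had no peak there, and its nearest summit was 4846 bp upstream of cnc-2. The entry at cnc-2 is thus at the weak end of both lists that hold it. Its summit lies between 2 WGATAR matches, the nearer end of one being 13 bp away. Of all pooled summits, 27.5% had a match within 50 bp. The bases within 50 bp of this summit (chrV:1450295-1450395, minus strand, so that they read towards cnc-2) are shown with the matches in capitals.

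cnc-2 summit: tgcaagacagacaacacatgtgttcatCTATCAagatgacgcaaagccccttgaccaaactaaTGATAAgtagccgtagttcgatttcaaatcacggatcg

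For cnc-4 the nearest pooled summit lay past the end of the gene, 807 bp downstream of its 5′ end and 2 bp upstream of its neighbour cnc-3 (chrV:1447854-1448149, signal 27, rank 2096, q = 0.0723). Replicate 1 divided this region into 2 peaks, with signals of 27.2 and 15 at 116 bp upstream and 85 bp downstream of the cnc-3 5′ end. The pooled peak at cnc-3 held 0 WGATAR matches. The peak in the promoter of R09B5.11 was the only IDR peak within 5000 bp of the cnc group, with a signal of 49.0 (rank 564 of 1202) and 2 matches within 50 bp of its summit. In the group with 5000 bp on each side there were 4 pooled summits (2.24 per 10 kb, against 0.821 on the chromosome), and 2 of these were in the R09B5.11 promoter. Without the flanks the count was 1, that at cnc-3. WGATAR itself was present at 3.44 matches per kb over the cnc group and 2.83 per kb over the nlp group, against 2.46 per kb over chromosome V. Many of the cnc matches lay close together near the left end of the group, away from cnc-4 and cnc-2. The promoter windows of these 2 genes held 1 and 3 matches.

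**Figure D4:**
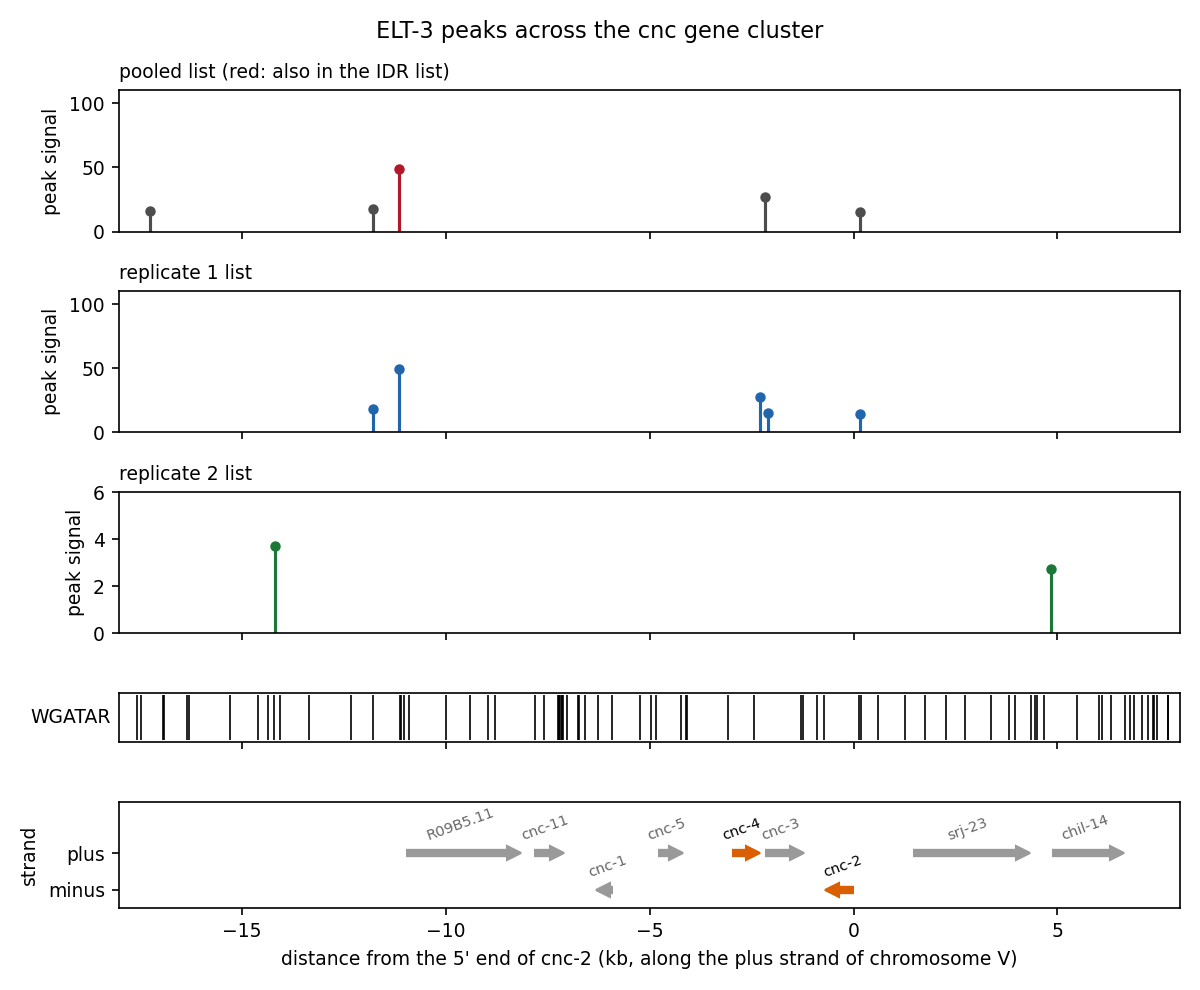
ELT-3 peaks across the cnc group, with the distance from the 5′ end of cnc-2 in kb on the x axis and panels as for the nlp group. The strongest pooled peak, with a signal of 49.0, lies in the promoter of R09B5.11, and those at cnc-3 and cnc-2 reach 27 and 15.2.

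The replicates differed at these genes, and they also differed over the IDR list. Of the 7 pooled summits in both groups with their flanks, 6 were overlapped by a replicate 1 peak and 0 by a replicate 2 peak. The exception in replicate 1 was the intronic entry of nlp-29. Only 1 of these summits in each group was in the IDR list. How many of all pooled peaks each replicate overlaps was not computed, so these counts have no share of the whole list beside them. Replicate 2 overlapped 117 of the 1202 IDR peaks (9.73%) and 16 of the 100 strongest. Its peaks are 596 bp wide, their median signal is 2.65 (the scale differs from that of the other lists), and WGATAR lay within 50 bp of 22.2% of the summits on nuclear chromosomes. The lists give no read counts, so whether replicate 2 was too shallow to show a peak at nlp-31 was not tested.

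In the order of bound genes by their strongest IDR promoter signal, nlp-31 and nlp-34 took places 48 and 49 of 688. The genes next above were rpl-11.2, a ribosomal protein gene (signal 96.4), and hsp-3, a chaperone gene of the endoplasmic reticulum (94.6, summit 26 bp upstream of its 5′ end). Those next below were vig-1, which encodes an RNA-binding protein of the RNA silencing complex (92.7), and unc-23, a cochaperone gene (92.7, summit 41 bp upstream). None of these 4 had a WGATAR match within 50 bp of the summit, where the nlp-31 peak had 2. A peak of replicate 2 overlapped the one at rpl-11.2 and none of the others. This likeness is in signal rank over 1 list only.

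Genes that belong to the same families or act in the same responses were examined beside the 8. Among the other 5 nlp genes of this peptide type, 1 had an IDR summit, against 3.44% of all genes (nlp-24, 161 bp upstream, signal 48.6, rank 582, no WGATAR within 50 bp). The pooled list gave 3 of the 5, against 17.9% of all genes. In it nlp-33 (signal 21.5) and nlp-32 (signal 21.0) had one too, with q-values of 0.337 and 0.378. None of the other 9 cnc genes had an IDR summit, and 2 had a pooled one (22.2%, against 17.9% of all genes), cnc-3 and cnc-8 (signal 26.7, q = 0.0804). With q at most 0.05 the pooled counts were 1 of the 5 and 0 of the 9. Of 42 genes for defensin-like and related peptides (abf, fip and fipr genes), 0 had an IDR summit and 8 a pooled one (19.0%, against 17.9% of all genes), 2 of them with q at most 0.05. Their strongest, at fipr-21, had a signal of 35.1 and rank 1231, just under the lowest IDR signal of 35.5.

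Upstream of the peptides, 2 of 18 genes of the damage and fungal response pathway had an IDR summit (11.1%, against 3.44%). They were nipi-3, whose peak 268 bp upstream had a signal of 98.1 and ranked 55, just ahead of nlp-31, and cebp-1, which encodes a bZIP factor known to be antagonized by NIPI-3 (784 bp upstream, signal 43.9, rank 764). Neither had a WGATAR match within 50 bp of the summit. In the pooled list 9 of the 18 genes had a summit, against 17.9% of all genes. With q at most 0.05 the count was 4, against 5.30%, and the strongest entries of the other 5 (akir-1, elt-3, rack-1, snf-12 and vhp-1) had q-values from 0.155 to 0.852. Among the 4, dcar-1, a receptor gene, had a signal of 33 with 3 WGATAR matches within 50 bp (rank 1392, q = 0.0119), and gpa-12 a signal of 29.3 with 1 match (rank 1764, q = 0.0383) under a summit that also lies in the lgc-4 window. The kinase genes nsy-1, sek-1 and pmk-1 and the factor gene sta-2 had no pooled summit in their promoter windows. In the DBL-1 pathway, known to act upstream of cnc-2, 1 of 10 genes had an IDR summit (10%, against 3.44%). This was sma-10, a receptor-binding membrane protein gene, 45 bp upstream with a signal of 46.4 and 2 WGATAR matches, under a summit that also lies in the srh-282 window. Pooled summits were found at 4 of the 10, against 17.9% of all genes. With q at most 0.05 the count was 2, against 5.30%, since the strongest entries at daf-4 and sma-9 had q-values of 0.152 and 0.785. Replicate 2 had a summit at 3 of the 18 (plc-3, pmk-1 and tir-1) and at 1 of the 10 (sma-2), against 5.30% of all genes, and no replicate 2 peak overlapped the IDR peaks of nipi-3, cebp-1, nlp-24 or sma-10.

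**Figure D5:**
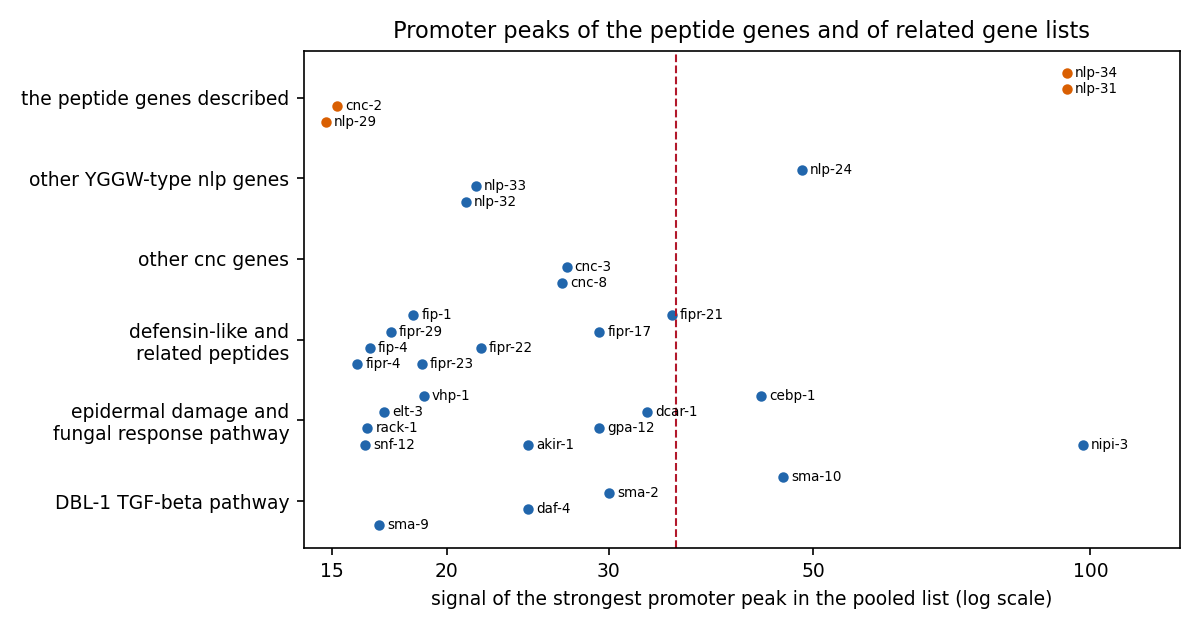
Signal of the strongest pooled promoter peak (log scale) for each gene that has one, by gene list, with the genes described in orange. The dashed line is the lowest IDR signal, 35.5. The peak of nlp-34 and nlp-31 (94.3) and that of nipi-3 (98.1) lie far to its right, and nlp-29 and cnc-2 lie at the left edge.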

How the data were processed

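Peak lists in the narrowPeak layout for ce11 were used: 1 per biological replicate, 1 called on both alignments and the IDR list, as the deposited records of derived files describe them. Each peak's signal score and −log10 q-value are the authors' deposited values. Aligner and peak caller were unknown (not given in the sources used here). No list gives read counts, so depth is unknown.

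From these, summits (peak start plus offset, 1-based) were placed against Ensembl annotation release 115, whose assembly WBcel235 is that of ce11, and WGATAR was searched on both strands of the RefSeq genome with Python 3.11.15. Biopython 1.88 aligned upstream sequences. The placement and the motif search were tested on simulated data. Replicate 2 has 25 mitochondrial peaks, which gene counts do not use. No test was made: there is 1 group. Gene counts in the window of 1000 bp upstream and 200 bp downstream stand beside the share of all genes.

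The members and lists were chosen with earlier results of these data known. The text names the 8 genes, genes sharing or flanking their summits, listed genes with an IDR summit, and the 2 genes next above and below in signal. Other named genes were chosen after their values were seen: nlp-32, nlp-33, cnc-8, fipr-21, dcar-1, gpa-12, nsy-1, sek-1, pmk-1, sta-2, plc-3, tir-1, akir-1, elt-3, rack-1, snf-12, vhp-1, daf-4, sma-9, sma-2, lgc-4, srh-282, R09B5.11 and cyp-34A10. Lists of ce10 were not used.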

Additional observations from a re-analysis of the deposited data

How the results depend on the processing

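Of 41 alternative values for 10 results, 25 stayed within 1.5 times the reported value and 16 moved further. The rank of the nlp-31 peak in the pooled list could hardly move, since the IDR list was derived from that list. Without replicate 1 or replicate 2 in turn, bound genes ran from 0 to 2 in lists of 1202 peaks and from 0 to 3 in whole lists. Summits, counted with flanks of 5000 bp, ran from 0 to 2 in the nlp group and from 1 to 5 in the cnc group. The low ends came from replicate 2 alone. A window of 500 bp upstream and 100 bp downstream gave 1 bound gene in the IDR list and 2 in the pooled list. Counting only the gene with the nearest 5′ end, an alternative chosen after seeing the data, gave 1 in the IDR list. The shares of all genes under these alternatives were not computed. A q-value of at most 0.05 left 2 bound genes in the pooled list. With flanks of 5000 bp it left 1 summit in each group, as did the IDR list. For the cnc group this was the flanking summit in the R09B5.11 promoter, and without flanks both counts there were 0. The nlp group held 6 summits with flanks of 10000 bp and the cnc group 1 without flanks. The 5 WGATAR matches near the 3 summits at the genes became 8 with GATA alone and 2 with TGATAA. Replicate 2 gave no rank for the nlp-31 peak, having none there. No paired analysis was possible because there is 1 group. Depth limits are unknown, since no read counts were used.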
